A study of Drosophila melanogaster with 3 samples.

Results

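The regions described here are the slou peaks of the X chromosome that lie away from promoters. They are the dm6 peaks of the authors' optimal list whose summit is on the X and more than 500 bp from every protein-coding transcription start site (TSS) in the Ensembl gene models. This rule gave 272 peaks, out of 498 optimal peaks on the X and 2743 in the genome. It used position and membership of the optimal list. The X also had 3312 peaks away from promoters on the longer list that the authors called on pooled replicates, and 272 of those, or 8.21%, were optimal.

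Chromatin was immunoprecipitated with an anti-GFP antibody from whole Drosophila melanogaster embryos aged 0 to 24 h, male and female pooled, and sequenced (ChIP-seq). The embryos carried a transgene that fuses GFP to the C-terminus of slou, and the chromatin was sheared by sonication. The 3 libraries are biological replicates of 1 group and no control library is among them, so X peaks are compared with 933 optimal autosomal peaks away from promoters and with 3012 X peaks away from promoters that overlap no optimal peak. Whether the untagged slou gene is still present is not given in the sources used here. Every tissue and stage of embryogenesis is mixed in each library, and a peak cannot be assigned to the cells that carry it.

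Slou (slouch) is an NK-class homeodomain transcription factor that helps to specify the identity of a subset of somatic muscles and neurons in the fly embryo. Homeodomains bind short A/T-rich sites, many with a TAAT core, and much of the binding of developmental regulators falls in introns and intergenic DNA. In Drosophila the single X of males is transcribed at a raised rate by the MSL complex, which carries the roX RNAs and reaches the X through GA-rich entry sites.

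Sequences within 50 bp of the summit are shown for the 5 highest-scoring X peaks, each of which ranked within the top 100 of all 3 replicates. They are also shown for the highest-scoring holders of a GA and a CA repeat, because those repeats are compared below. They are read from the plus strand of the RefSeq Release 6 genome, 5′ to 3′. Capitals mark a match, on either strand, to any of 7 short motifs that were searched.
lncRNA:Vinr exon, chrX:12751334-12751434: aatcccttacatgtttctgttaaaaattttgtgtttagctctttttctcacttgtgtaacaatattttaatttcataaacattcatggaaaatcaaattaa
CG32772 intron, chrX:4910289-4910389: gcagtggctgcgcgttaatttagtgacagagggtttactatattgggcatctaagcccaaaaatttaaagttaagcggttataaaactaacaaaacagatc
lncRNA:Vinr and lncRNA:CR44619, chrX:12752295-12752395: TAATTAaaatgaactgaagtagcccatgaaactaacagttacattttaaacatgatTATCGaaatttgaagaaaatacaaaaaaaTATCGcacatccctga
Tlk intron, chrX:3742172-3742272: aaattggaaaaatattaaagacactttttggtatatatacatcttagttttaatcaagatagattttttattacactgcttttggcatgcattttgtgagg
norpA intron, chrX:4324934-4325034: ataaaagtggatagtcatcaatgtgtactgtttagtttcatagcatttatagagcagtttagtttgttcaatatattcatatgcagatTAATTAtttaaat
Raf intron, chrX:2297670-2297770: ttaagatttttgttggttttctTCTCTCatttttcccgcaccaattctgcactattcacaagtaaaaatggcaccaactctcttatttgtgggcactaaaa
Sclp intron, chrX:11921090-11921190: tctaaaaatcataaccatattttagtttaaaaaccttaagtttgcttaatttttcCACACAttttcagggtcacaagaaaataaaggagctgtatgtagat
The A/T share of the first 5 windows, in order, was 76.2%, 62.4%, 72.3%, 74.3% and 75.2%, and all but the CG32772 window stood above the mean of the X peaks given below. The first 2 and the Tlk window held none of the 7 motifs. The third window held TAATTA at its left end and CGATA, read as its reverse complement, at 2 places. The norpA window held TAATTA, the Raf window GAGAGA as its reverse complement, and the Sclp window CACACA.

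Each peak carries a score, which is the authors' own value on a scale that the sources used here do not state, so it serves only to order peaks within a list. The scores of the 272 X peaks ran from 92.3 to 822 with a median of 136. The optimal list is the top of the pooled list, so the lower end of this range is set by the list. The X peaks of the pooled list that were not optimal scored 28.1 to 92.0. The lowest X member, at HDAC4, scored 92.3 and the highest X peak just outside, at Raf, scored 92.0. At the distance limit, the members nearest to a start site lay 510, 511 and 525 bp away (prage, CG17896 and CG4615, scores 260, 430 and 216), and the X optimal peaks just inside it lay 494, 492 and 486 bp away (CG3638, CG15247 and spri, scores 113, 116 and 130).

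The strongest X peak away from promoters was at chrX:12750875-12751595, 721 bp wide, with a score of 822. It ranked 17, 11 and 19 in replicates 1, 2 and 3, where rank 1 is the highest of the 30000 peaks in a replicate list. Its summit fell in the exon of the long noncoding RNA lncRNA:Vinr (chrX:12749894-12752350, plus strand), 5067 bp from the nearest coding start site, that of CG4004. It lay 483 bp from the start site of the noncoding gene lncRNA:CR44619, which the rule, based on coding start sites, does not count. The third strongest, at chrX:12752213-12752490, scored 715 and ranked 18, 29 and 31, with its summit where lncRNA:Vinr overlaps lncRNA:CR44619 (chrX:12751867-12754571, plus strand). There both noncoding genes cover the summit, so neither can be named as its only host. This summit lay 478 bp from the start site of lncRNA:CR44619. A noncoding start site lay within 500 bp of 10 of 272 X members (3.68%). The same held for 58 of 933 optimal autosomal peaks (6.22%) and 75 of 3012 X peaks that were not optimal (2.49%).

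The second strongest X peak lay at chrX:4910227-4910522 in the first intron of CG32772, 1237 bp downstream of its start site. It scored 820 and ranked 20, 17 and 12. The fourth was in the first intron of Tlk, which encodes the tousled-like kinase, at chrX:3742098-3742352, 2325 bp downstream of the nearest Tlk start site. It scored 646 and ranked 25, 38 and 37. The fifth was in the first intron of norpA, the phospholipase C of fly phototransduction, at chrX:4324870-4325109, and it ranked 46, 71 and 56 with a score of 531. These 5 and the peak in CG3726 (score 491, ranks 88, 61 and 65) were the only 6 of 272 to stand in the top 100 of all 3 replicates.

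Next in score came a peak in an untranslated 5′ exon of baz, which encodes the polarity protein Par-3 (463, ranks 71, 116 and 67), and a peak in an intron of gce, a juvenile hormone receptor (437, ranks 100, 102 and 87). The gce summit lay 238 bp from the start site of the noncoding gene asRNA:CR44429. The ninth was intergenic, 511 bp upstream of CG17896 (430, ranks 166, 65 and 127). It was the only one of the 12 strongest that was intergenic. NFAT, which encodes a transcription factor, held the tenth in an intron (403, ranks 102, 125 and 142), Pits the eleventh (392, ranks 132, 143 and 100), and Raf, the kinase that relays receptor tyrosine kinase signals to MAPK, the twelfth (348, ranks 267, 128 and 182). Of the 100 highest peaks of the whole optimal list, 9 were X peaks away from promoters. Such peaks were 272 of all 2743 optimal peaks, so the 9 were close to their share of the list.

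Replicates were compared by the rank of the best overlapping peak in each replicate list. The median rank of the 272 X peaks was 1554, 1408 and 1300 in replicates 1, 2 and 3, against 1471, 1644 and 1523 for the 933 autosomal peaks. Peaks with no overlapping peak in a list, among them 2 X peaks in replicate 2, were ranked after the last peak of that list. The X peaks thus stood 82.5 places lower in replicate 1 and 236 and 223 places higher in replicates 2 and 3. The mean difference was -126 ± 180 places (SD, n = 3; X minus autosomes), with an exact two-sided sign-flip p of 0.50, where 3 replicates cannot give less than 0.25. The difference was within the spread between replicates.

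**Figure D1:**
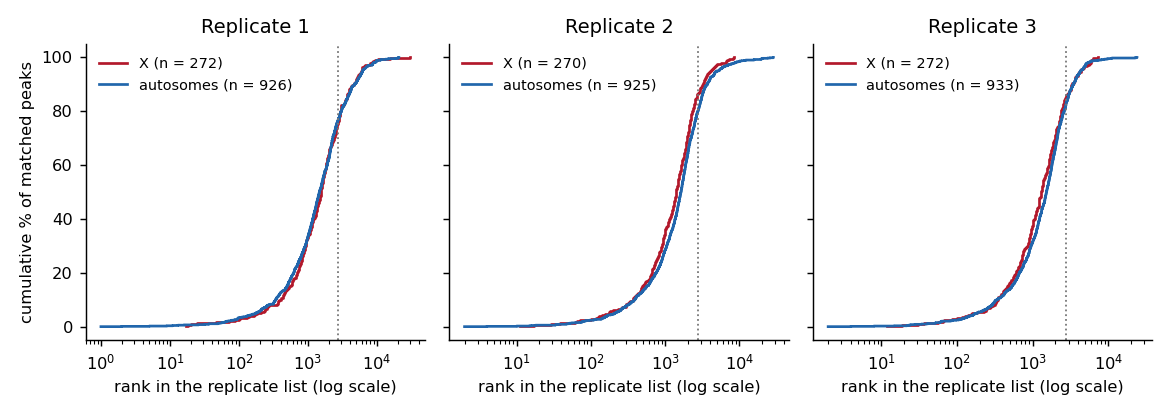
Cumulative percentage of matched optimal peaks away from promoters (vertical axis) against the best rank of an overlapping peak in each replicate list (horizontal axis, log scale), 1 panel per replicate. X peaks are red, autosomal peaks blue, and the dotted line is rank 2743. The curves lie close together; with unmatched peaks ranked last, the X medians were 1554, 1408 and 1300 and the autosomal medians 1471, 1644 and 1523.

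A peak was counted as supported by a replicate when it overlapped one of the 2743 highest peaks there, as many as the optimal list holds. Replicate 1 supported 208 X peaks, replicate 2 supported 233 and replicate 3 supported 232. All 3 supported 162 X peaks, exactly 2 supported 77 and only 1 supported 33, while none was without support. The share supported by all 3 was 59.6% (95% interval 53.6 to 65.2) on the X and 53.7% (50.5 to 56.9) on the autosomes, an odds ratio of 1.27 with a two-sided Fisher exact p of 0.0964. In 2 of the X peaks no peak of the replicate 2 list overlapped at all. Support went with the score: 128 of the 134 X peaks among the 1371 highest of the optimal list were supported by all 3 replicates, and 34 of the other 138. On the autosomes these counts were 377 of 396 and 124 of 537. The score was called on the same 3 replicates pooled, and the list was cut on their reproducibility. Support by the replicates was therefore partly set in advance.

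The 1371 highest of the 2743 optimal peaks held shares of the X and autosomal peaks away from promoters of 49.3% (134 of 272) and 42.4% (396 of 933). The odds ratio was 1.32 and the Fisher exact p 0.0519, just short of the threshold of 0.05. It passed in 3 alternatives (p 0.0464 with start sites of any transcript, 0.0439 without chromosome 4, 0.0497 without replicate 2), so no call is made on it. The median score was 136 on the X and 127 on the autosomes, where the highest reached 1515.

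X peaks were more often away from promoters than autosomal ones. Of the optimal X peaks, 54.6% (272 of 498; interval 50.2 to 58.9) were more than 500 bp from a coding start site, against 41.6% on the autosomes (933 of 2245; 39.5 to 43.6), an odds ratio of 1.69 with a Fisher exact p of 1.47e-07. Peaks that were not optimal did not show this: 78.3% of 3849 on the X and 80.7% of 22994 on the autosomes were away from promoters, an odds ratio of 0.861 (95% interval 0.793 to 0.936). The ratio of the 2 odds ratios was 1.96 (1.59 to 2.43). Among pooled-list peaks away from promoters, 8.21% on the X and 4.76% on the autosomes (933 of 19618) were optimal, an odds ratio of 1.79 with a Fisher exact p of 8.52e-15. Peaks are the units of these tests, and neighbouring peaks are not independent.

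By arm, the X had 11.6 optimal peaks away from promoters per Mb, against 10.8 for 2L, 9.06 for 2R, 7.68 for 3L and 7.17 for 3R, while the small chromosome 4 had 3.71. Its density of promoter peaks was 9.60 per Mb, below each of the 4 large autosomal arms, the lowest of which was 3L with 10.3. Peaks away from promoters that were not optimal numbered 128 per Mb on the X and 130 to 239 on those 4 arms. The share away from promoters was 54.6% on the X and 39.5% to 43.5% on all autosomal arms. The X thus combined the most optimal peaks away from promoters per Mb with the fewest others among the large arms. The share of X to autosomal DNA in the libraries was not measured, and its part in these densities was not tested.

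**Figure D2:**
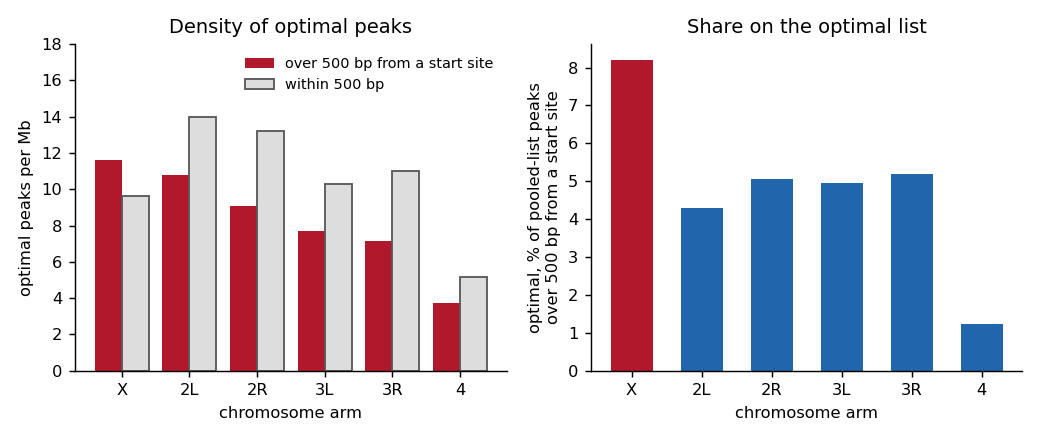
Left, optimal peaks per Mb on each chromosome arm, away from promoters (red) and within 500 bp of a coding start site (grey). Right, the percentage of pooled-list peaks away from promoters that were optimal, with the X in red. The X bar stands at 8.21%, and the autosomal arms lie between 1.23% on chromosome 4 and 5.20% on 3R.

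Introns held most of the X peaks. A summit lay in an intron in 214 of 272 (78.7%, interval 73.4 to 83.1), between genes in 42 (15.4%), in a 3′ UTR in 9, in a noncoding exon in 4 and in a 5′ UTR in 3. No X summit lay in coding sequence, which allows a share of up to 1.10%. The same class held 3 of 933 autosomal optimal peaks (0.322%) and 116 of 3012 X peaks that were not optimal (3.85%). The intron share was above the 64.8% (605 of 933) of autosomal peaks, with an odds ratio of 2.00 and a Fisher exact p of 1.24e-05. It was also above the 66.1% (1990 of 3012) of X peaks that were not optimal, with an odds ratio of 1.89 and a Fisher exact p of 1.47e-05.

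The excess over the autosomes was present in peaks that were not optimal too. There the intron share was 66.1% on the X and 52.6% on the autosomes, an odds ratio of 1.76, and the ratio of the odds ratios was 1.14 with a 95% interval of 0.818 to 1.58. Introns made up 49.1% of X and 44.2% of autosomal sequence more than 500 bp from a start site. Arm 3R, with 74.3% of its optimal peaks away from promoters in introns, was nearest to the X, and 2L, 2R and 3L had 60.1%, 65.9% and 60.2%.

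**Figure D3:**
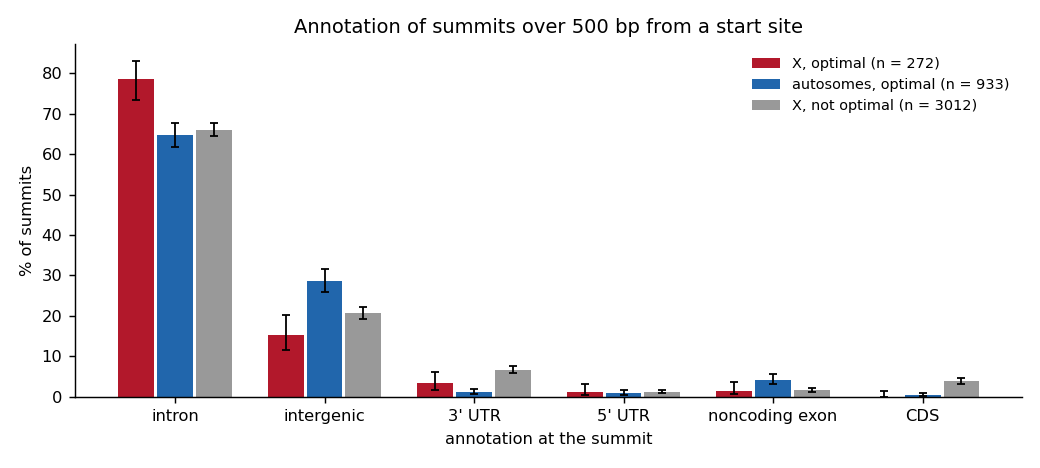
Percentage of summits away from promoters (vertical axis) by annotation (horizontal axis) for 272 optimal X peaks (red), 933 optimal autosomal peaks (blue) and 3012 X peaks that were not optimal (grey). Bars are shares of peaks and error bars 95% Wilson intervals. The intron bar is highest for the optimal X peaks, at 78.7%.

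First introns were examined among summits in introns of coding transcripts. On the X 141 of 206 (68.4%) lay in the first intron of a transcript, more than the 57.7% (1100 of 1906) of X peaks that were not optimal (odds ratio 1.59, Fisher exact p 0.00286). Against the autosomes the share was lower, with 76.5% (457 of 597) there, an odds ratio of 0.665 and a Fisher exact p of 0.0260. That call was lost without replicate 2 (p 0.0518), without replicate 3 (p 0.133), in peaks supported by all 3 replicates (p 0.0644) and with 1 peak per chain of neighbours (p 0.202). In peaks that were not optimal the odds ratio was 1.14, and the ratio of the odds ratios was 0.582 (95% interval 0.405 to 0.838).

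X members lay a median of 2237 bp from the nearest coding start site, against 2809 bp for optimal autosomal peaks and 4028 bp for X peaks that were not optimal. The farthest, in mamo, a gene of a zinc-finger transcription factor, lay 42294 bp downstream with a score of 225 and ranks of 773, 377 and 563. Within 2 kb of a start site were 127 of 272, and 36 were more than 10 kb away. The members split by distance into 3 groups of 91, 90 and 91 had median scores of 143, 137 and 128 from the nearest to the farthest, and 63, 55 and 44 of them were supported by all 3 replicates. By annotation, the median score was 136 in first introns, 135 in other introns and 131 between genes. The 9 peaks in a 3′ UTR had a median of 107, and 2 of them were supported by all 3 replicates. Between the X members themselves these are descriptions, with no test.

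Of the 272 summits, 218 lay in the body of a coding gene, and 42 of those were nearest to the start site of another gene. The X has 619 coding genes with a pooled-list summit away from promoters in their body, and 151 of them, or 24.4%, held a member. A single member was found in 114 of these hosts, 2 in 21 and 3 or more in 16, which together held 73 members. Hosts were long, with a median of 21309 bp against 8512 bp for the other tested genes. With the tested genes in 4 classes of equal number from the shortest to the longest, 10.3%, 19.4%, 26.0% and 41.9% held a member. A longer gene offers more sequence for a peak, so host counts are read beside gene length.

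CG1677, a gene of 124709 bp that contains several others, held the most members, 9 of its 37 pooled-list summits. All 9 were nearest to the start sites of other genes. One lay 739 bp upstream of brk (chrX:7307939-7311132, plus strand), which encodes a repressor of Dpp target genes, with a score of 143 and ranks of 752, 1397 and 1742. The best of the 9 lay 776 bp downstream of the start of Dok, with a score of 220 and ranks of 444, 1004 and 377. Tlk held 7 of 32 summits, with scores from 104 to 646. CHES-1-like, a forkhead transcription factor gene, held 7 of 15, and Hr4, a nuclear receptor gene of the ecdysone response, held 7 of 10.

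Raf held 6 members of 13 summits, with scores from 103 to 348. The cell-adhesion gene kirre, whose protein draws fusion-competent myoblasts to muscle founder cells, held 6 of 91 summits across its 394149 bp. The kirre members scored 94.4 to 191, and the best ranked 863, 787 and 571. CG32795 lies within kirre, and its body held 2 of these members, among them the best. Its start site was the nearest to both. NFAT held 4 of 20. Smr, which encodes a corepressor of nuclear receptors, CG14434, and Tis11, whose protein binds AU-rich mRNAs, held 3 each. The best of these 3 genes' peaks was in Smr, with a score of 339 and ranks of 141, 200 and 276. The members were thus 6.59% of the pooled-list summits in kirre and 70.0% in Hr4. Over all X pooled-list peaks away from promoters the share was 8.21%, so kirre stood below it.

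**Figure D4:**
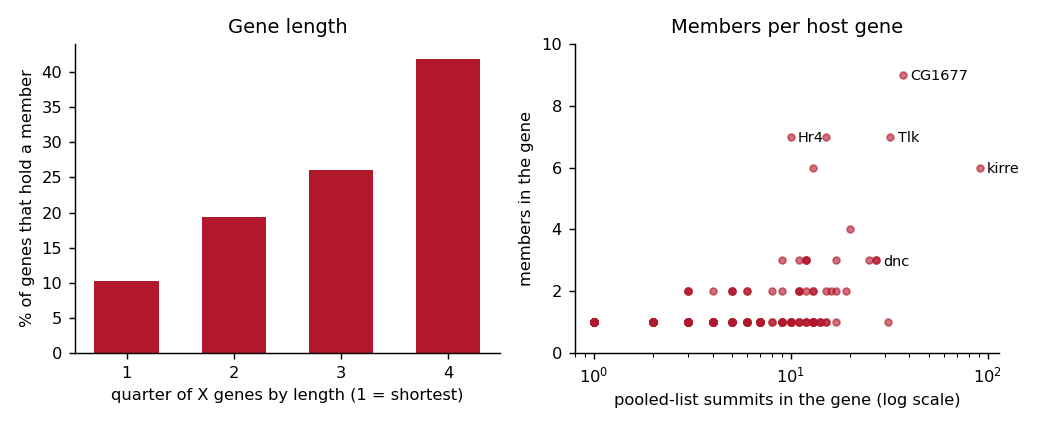
Left, the percentage of tested X genes that held a member, by class of gene length from the shortest (1) to the longest (4), rising from 10.3% to 41.9%. Right, members per host gene against pooled-list summits away from promoters in the gene (log scale), 1 point per host. Hr4 held 7 members among 10 summits and kirre 6 among 91.

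In all, 7 lists of X-linked genes were examined beside the 24.4% of all tested X genes. Their genes were chosen with earlier results of these data known, so they carry no test. Among signalling genes 8 of 11 tested genes held a member (72.7%), and these 8 were the 8 of the list that fell in the longest of the 4 classes, each of at least 23864 bp. The best of them were Tlk, Raf and N. N encodes the Notch receptor and held 1 peak, with a score of 200 and ranks of 843, 669 and 474. The nearest coding start site to that peak was that of CG18508. The other 5 were dlg1, a scaffold of cell junctions, sog, a secreted antagonist of BMP ligands, Ptp10D, a receptor tyrosine phosphatase, sgg, the GSK3 kinase of Wingless signalling, and fog, a secreted ligand of gastrulation, whose single peak also lay in CG42346.

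Among homeobox genes 3 of 8 held 1 member each. OdsH had a score of 137 and ranks of 1832, 1266 and 1876. Lim1 had a score of 119 and ranks of 2809, 2696 and 1112, and ct, which sets the identity of sensory organs, had a score of 103 and ranks of 5398, 2206 and 1845. Against the X median score of 136, the OdsH peak stood just above and the other two below. Among the other transcription factor genes 4 of 11 held members, led by CHES-1-like and Hr4. The T-box gene bi followed with 1 peak, which had a score of 120 and ranks of 4868, 2258 and 1064, and Bx was the fourth.

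Among muscle and adhesion genes 3 of 13 held a member, namely kirre, Nrg and bif. Nrg, which encodes the adhesion protein neuroglian, had a score of 109 and ranks of 4054, 1778 and 2951, with PIP82 as the nearest coding start site. The actin regulator gene bif had a score of 99.7 and ranks of 5247, 3471 and 1643. Both were supported by a single replicate. Among neuronal genes 4 of 12 held members, of which norpA led. The kinase gene mnb had a score of 277 and ranks of 385, 323 and 322, with CG12985 as the nearest coding start site. The best of 3 peaks in dnc, the cAMP phosphodiesterase gene, had a score of 128 and ranks of 1730, 1142 and 1834. The fourth was elav, whose single peak also lay in the longer gene arg.

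Among chromatin genes 3 of 9 held members. They were Smr, ph-p, a subunit gene of Polycomb repressive complex PRC1 with a best score of 220 and ranks of 538, 949 and 349, and fs(1)h, a BET protein gene with a score of 189 and ranks of 595, 485 and 1610. The sex determination and dosage compensation list had 3 tested genes, Sxl and the noncoding roX1 and roX2. The 24.4% of all tested X genes covers coding genes only, so the roX genes are outside it. Only Sxl, the switch gene of female development, held a member. That peak scored 93.5, near the end of the optimal list, and ranked 3647, 1882 and 3225. Neither roX gene held a member, and the nearest members lay 18437 bp from roX1 and 18546 bp from roX2.

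Members lay close together along the X. Of the 272 summits, 44.1% had another member within 10 kb, against 41.3% to 45.8% on the 4 large autosomal arms. The median gap on the X was 35104 bp and the mean gap 83833 bp. Neighbouring peaks are not independent, so clustering carries no test. The X share lay inside the range of the other large arms although its density was the highest. A promoter optimal peak lay within 10 kb of 34.9% of X members (95 of 272, interval 29.5 to 40.8), of 27.8% of autosomal ones (25.0 to 30.7) and of 19.0% of X peaks that were not optimal (17.6 to 20.4).

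Chaining summits at most 10 kb apart gave 196 chains, of which 152 were single members, 28 were pairs and 16 held 3 or more, 64 members in all. The largest held all 7 CHES-1-like members, within 14808 bp of introns. Their scores ran from 126 to 301 and all 7 were supported by all 3 replicates. The best of them, at chrX:7706902-7707112, ranked 253, 294 and 254, and the weakest, at chrX:7692716-7693105, ranked 1951, 2110 and 1748.

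The second chain held 6 members in 4814 bp between CG4004 (chrX:12744212-12749785, plus strand) and Paics (chrX:12757036-12760617, minus strand). It contains the strongest and the third strongest X peaks, and none of its 6 summits was in a coding gene. The other 4 scored 120 to 250. The last 2 summits were 210 bp apart, overlapped, and matched the same replicate peaks (ranks 820, 668 and 1002), so they may not be separate sites. In all, 3 pairs of neighbouring members overlapped.

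Tlk, Raf and CG1677 held a chain of 5 each. The Tlk chain spanned 8550 bp with scores of 104 to 646, the Raf chain 7814 bp with scores of 103 to 348, and the CG1677 chain 13785 bp with scores of 102 to 220. All 3 replicates supported 3 members of the Tlk chain, 4 of the Raf chain and 2 of the CG1677 chain.

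**Figure D5:**
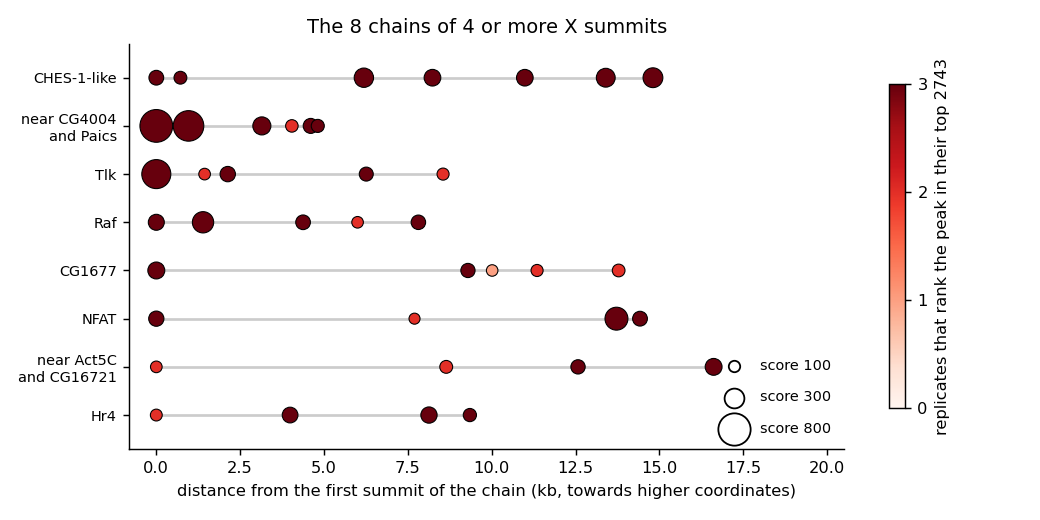
Members of the 8 chains of 4 or more X summits, by distance in kb from the first summit of the chain (horizontal axis). Circle area follows the authors' score, and darker red marks more replicates that hold the peak in their top 2743. All 7 CHES-1-like members are dark, and the 2 largest circles open the chain between CG4004 and Paics.

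In Mb steps along the X, the 23 full bins held 1 to 26 members with a median of 11. The most were in the eighth Mb (chrX:7000001-8000000), which holds CHES-1-like and CG1677, with 14 promoter peaks beside its 26 members. The fourth Mb followed with 23 members and 6 promoter peaks. It also held 219 peaks away from promoters that were not optimal, the most of any bin. As a share of members plus such peaks, members were 9.50% in the fourth Mb and 14.2% in the eighth. The highest share was 14.8%, in the third Mb with 17 members, and the second Mb with 11 members had 14.1%. The order by count was thus not the order by share. The fewest members in a full bin, 1, was in the 23rd Mb, next to the centromeric heterochromatin. In the 23 bins no bin was without a member.

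Optimal X peaks were richer in A and T than the X peaks that were not optimal. The A/T share within 50 bp of the summit was 67.3% ± 8.17 (SD over 272 peaks) in members, 67.1% ± 7.82 in autosomal optimal peaks and 61.6% ± 9.44 in X peaks that were not optimal. The 7 motifs were counted as matches on either strand in the same 101 bp, and their 14 tests were adjusted together by Benjamini-Hochberg. They were TAATTA, a palindromic homeodomain core, its variant TAATTG, the GA repeat GAGAGA, found in entry sites of the MSL complex, the CA repeat CACACA, common on the fly X, CGATA of the boundary protein BEAF-32, CAGGTA of the zygotic activator Zelda and AGATAA of GATA factors. TAATTA and TAATTG can overlap by a few letters, and a match is no evidence of a bound site.

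TAATTA was found in 34 of 272 X members (12.5%, interval 9.08 to 17.0), in 94 of 933 autosomal peaks (10.1%) and in 228 of 3012 X peaks that were not optimal (7.57%). The odds ratio against the latter was 1.74 with an adjusted Fisher exact p of 0.0476, and against the autosomes it was 1.28 with an adjusted p of 0.616. The first call was lost in all 10 alternatives that change the peaks, the window or the base composition of this comparison, where the odds ratio was 1.26 to 1.84. At equal A/T share it was 1.26 with a 95% interval of 0.854 to 1.86, which also holds the 1.74 above. Whether the higher A/T share of members accounts for the difference was not tested. The norpA window above holds 1 of these matches.

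CACACA was rarer in X members, with 10 of 272 (3.68%, interval 2.01 to 6.63) against 296 of 3012 (9.83%) X peaks that were not optimal. The odds ratio was 0.350 with an adjusted Fisher exact p of 0.00420, and at equal A/T share it was 0.412 (95% interval 0.216 to 0.784). Against 61 of 933 autosomal peaks (6.54%) the odds ratio was 0.546 with an adjusted p of 0.282. The call was lost among the 1371 highest optimal peaks, with a window of 100 bp either side and with 1 peak per chain (adjusted Fisher exact p 0.212, 0.202 and 0.0747).

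GAGAGA was found in 4.04% of X members (11 of 272), in 3.86% of autosomal peaks and in 4.12% of X peaks that were not optimal. With a window of 100 bp either side it was found in 14.7% of X members (40 of 272), in 10.7% of autosomal peaks and in 8.13% of X peaks that were not optimal. The wider window gave an odds ratio of 1.95 against the latter with an adjusted Fisher exact p of 0.00905, and of 1.44 against the autosomes with an adjusted p of 0.279. The other 4 motifs did not pass in either comparison, with odds ratios from 0.765 for CAGGTA to 1.57 for AGATAA.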

How the data were processed

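Peaks were called by the authors in each of the 3 replicates and on the pooled replicates, in each case against a control, per the deposited README files, and the optimal list was cut at a threshold on reproducibility between replicates. The deposited signal score and −log10 q of each peak are the authors' values; the −log10 q of X members ran from 2.41 to 3.03, with 159 at the latter. The names of the aligner and caller were not given in the sources used here. By score, the optimal list was the top 2743 of 30000 pooled-list peaks. The deposited files used hold no read counts, so depth is unknown. The summit is the deposited offset. Most intervals (243 of 272) were 390 bp wide.

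Gene models were those of Ensembl release 115 for the dm6 lists (annotation BDGP 6.54). Sequence came from RefSeq's Release 6 genome, and no peak ran past the end of an arm. Coordinates are dm6 and 1-based. The dm3 lists were not used here. Shares were compared by two-sided Fisher exact tests with 95% Wilson intervals, replicates by an exact sign-flip test, and motifs with Benjamini-Hochberg adjustment over 14 tests. Ratios of odds ratios have Woolf intervals. Peaks, not libraries, are the units, and intervals cover counting error only. Region classes were assigned with UTRs first, then coding sequence, noncoding exons, introns and intergenic sequence. Named genes are the hosts of the 12 highest-scoring members, the 10 genes with most members, up to 3 genes of each list and the 3 largest chains; the members of smaller counts and other genes were named after their values were seen. Of 93 listed genes 92 were on the X, 2 under a newer symbol. The members and lists were chosen with earlier results of these data known. Python 3.11, scipy 1.17.1, pandas 2.3.3, numpy 2.4.6 and statsmodels 0.14.6 were used, and the scripts were tested on simulated data. Alternatives were another start-site distance, start sites of any transcript, the 1371 highest peaks, replicate-matched peaks, chromosome 4 left out, a wider motif window, other chain distances and each replicate left out. Taking 1 peak per chain and the odds ratio at equal A/T share, pooled over 5 classes of A/T by Mantel-Haenszel, were chosen after seeing the data.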

Additional observations from a re-analysis of the deposited data

How the results depend on the processing

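The odds ratios for the share away from promoters, the share optimal, the intron shares and the first intron share against X peaks that were not optimal stayed past the threshold with the same sign in every alternative run for them. For the share away from promoters they ran from 1.49 to 2.14. That share and the share optimal were not run with 1 peak per chain, the alternative that thins neighbouring peaks. With 1 peak per chain the intron odds ratio against autosomes was 1.66 (Fisher exact p 0.00657). Against X peaks that were not optimal it was 1.72 (Fisher exact p 0.00131). With a replicate left out, optimal peaks supported by the other 2 were tested. This gave odds ratios of 1.12 to 1.45 for the top 1371 by score, 0.629 to 0.708 for first introns against autosomes and, with all peaks kept, 1.07 to 1.37 for replicate support, which passed only without replicate 3 (Fisher exact p 0.0334). The top 1371 share gave 1.33 with start sites of any transcript and 1.33 without chromosome 4. First introns against autosomes gave 0.634 in peaks supported by all 3 replicates and 0.766 with 1 peak per chain. The mean rank difference, X minus autosomes, turned from -126 to 8.67 places among the 1371 highest peaks, and was -230 to -70.2 with a replicate left out. Of 14 motif tests 2 passed. Only 1 passed with a start-site distance over 1000 bp, with start sites of any transcript, in peaks supported by all 3 replicates, with a window of 100 bp and without any 1 replicate. With the 100 bp window it was GAGAGA against X peaks that were not optimal, which was not 1 of those 2. Among the 1371 highest peaks and with 1 peak per chain 0 passed, and there at an unadjusted Fisher exact p the CACACA tests stood at 0.0359 and 0.00533. GAGAGA, at odds ratios near 1, turned to 0.906, 0.925 and 0.863 to 0.918 against autosomes with a distance over 1000 bp, in peaks supported by all 3 replicates and with a replicate left out, and against X peaks that were not optimal to 1.01, 1.09, 1.95 and 1.24 with start sites of any transcript, among the 1371 highest peaks, with the 100 bp window and at equal A/T share. The cause was not tested. The share of summits within 10 kb of another was 38.3% on the X with a distance over 1000 bp, 36.6% and 29.0% on the X and the autosomes among the 1371 highest peaks, and 37.0% and 34.5% in peaks supported by all 3 replicates. It was 33.8% and 29.6% within 5 kb and 59.9% and 55.1% within 20 kb. Without read counts, depth cannot be set beside any score.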

Other observations

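Some X peaks with little replicate support lay at developmental genes outside the lists or at list genes with no member in their body, named here after their values were seen. The netrin genes NetA and NetB, which encode axon guidance cues, held 1 member each, with scores of 94.4 and 114. Ranks were 2850, 4181 and 2043 in NetA and 2889, 3329 and 1290 in NetB. The nearest coding start sites were those of sbm for the NetA peak and hog for the NetB peak. A member 14050 bp downstream of the start of upd1, a ligand of the JAK/STAT pathway, scored 110 and ranked 5602, 1354 and 3568. It lay 11145 bp from the body of upd1 and 9613 bp from that of upd3, so upd3 was the nearer of these genes by body. A member 15736 bp from the start of the homeobox gene oc scored 94.8 and ranked 5284, 4016 and 1575. Both members nearest to ovo, a zinc-finger gene of the germ line and epidermis, lay upstream of it. The one at 6538 bp scored 99.0 and ranked 3702, 1366 and 4713. The nearer, at 1577 bp, scored 94.2, ranked 2419 in replicate 1 and 1215 in replicate 3, and had no overlapping peak in replicate 2. It was supported by 2 replicates, and each of the other 5 peaks by a single one.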
